A study of Mus musculus with 7 samples.

Results

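Ciliated ependymal-like nuclei were identified among the single nuclei of mouse hippocampus by the transcripts of 7 genes of motile cilia. A nucleus was taken when Dnah6, Dnah11, Spag16, Cfap44, Enkur, Lrriq1 and Drc7 made up at least 0.8% of its transcripts, at least 3 of these genes were detected, the choroid plexus transcript Otx2os1 was at 0 and Htr2c, the serotonin receptor of choroid plexus epithelium, had at most 1 count. Nuclei had to hold more than 300 and fewer than 50000 transcripts and more than 400 genes. Of 47621 such nuclei, 657 met the rule, which is 1.38% (95% Wilson interval 1.28 to 1.49%, counting error only). All 24 wells and all 7 sublibraries contributed members, with 85 to 104 nuclei per sublibrary and 7 to 52 per well.

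The nuclei came from wild-type (WT) mice and from Arctic48 mice (Arc), which are hemizygous on a C57BL6/J background for a human APP transgene with the Swedish, Indiana and Arctic mutations. Mice drank water (veh) or water with 20 µg/ml PMX205, a cyclic hexapeptide antagonist of the complement receptor C5aR1, for 12 weeks by the labels, were housed singly and were perfused at 10 months of age. The text of the study describes a somewhat shorter treatment of these mice. The 4 groups, WT-veh and WT-PMX for wild-type and Arc-veh and Arc-PMX for Arctic mice, each had 6 wells of nuclei, 3 from females, named F1 to F3, and 3 from males, named M1 to M3, and each well held nuclei of 1 mouse. All wells were barcoded together by Split-seq, in which nuclei receive a well barcode and are then pooled, so the well was the replicate and the 7 deposited libraries were aliquots of the same pool. The promoter that drives the transgene is not given in the sources used here.

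Ependymal cells line the brain ventricles and carry tufts of motile cilia whose beat moves cerebrospinal fluid along the wall. The shaft of such a cilium, the axoneme, has outer doublet microtubules around a central pair, and dynein arms on the doublets slide them past each other while radial spokes and nexin links shape the bend. The choroid plexus, which secretes the fluid, is a neighbouring epithelium whose cells share part of the cilium programme, and astrocytes share a radial glial origin with the ependyma.

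Depth and the libraries that stood apart are given before the results. The members had a median of 1430 transcripts (506 to 6380) and 969 genes per nucleus, against a median of 4222 transcripts over all nuclei. The transcripts of a well's members summed to between 4620 and 118121. WT-veh F3 and WT-veh M3 held 7 members each, the fewest of the 24 wells. Arc-veh F3 and Arc-veh M1 stood apart in the transcript AY036118, in these and in all other nuclei. Arc-veh M1 also had the highest Gm42418 of the 24 wells, at 20016 CPM (counts per 1e6 transcripts) in the members against 4643 to 17381 in the other wells, and at 11869 against 2069 to 9764 CPM in the other nuclei. WT-PMX M2 was the highest well for Cdk8 in both. Arc-veh M3 had the mitochondrial transcript mt-Rnr2 at 12467 CPM in the other nuclei, against 204 to 4399 in the remaining wells, while its members, at 22184 CPM, lay within the 3965 to 38949 of the members of the remaining wells. Among all nuclei, 4497 barcode combinations occurred in more than 1 sublibrary, but no member shared its combination with another member. The X-inactivation transcript Xist had 222 counts in the members of the 12 female wells and 5 in those of the 12 male wells, and the Y-linked Uty had 2 and 89.

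The rule used measured values, so its own genes describe the members and test nothing. The 7 rule genes took 0.803 to 2.88% of a member's transcripts, with a median of 1.30%. All 7 were detected in 108 members, 6 in 242, 5 in 184, 4 in 90 and 3 in 33. Just inside the limit, 113 members had a share of 0.8 to 1%, and just outside it 76 nuclei had 0.5 to 0.8% and met the other criteria. A further 4 nuclei passed 0.8% with only 1 or 2 of the genes. The choroid plexus criteria left out 186 of 843 nuclei that met the cilium criteria. Of those, 109 met a rule for choroid plexus-like nuclei and 77 did not, the latter with a median of 1 count of Otx2os1 and Htr2c together.

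Classes of nuclei taken from shares of marker transcripts in the same way served for comparison. These were 683 choroid plexus-like, 5268 astrocyte-like and 30322 neuron-like nuclei. No member met the choroid plexus-like or the astrocyte-like rule, 18 members also met the neuron-like rule and 3 also met one for oligodendrocytes. The choroid plexus-like rule counts Otx2os1 and Htr2c among its markers, and the members' rule limits both. The lack of overlap with that class was therefore largely set in advance. The doublet score was above 0.25 in 8 members (1.22%), against 2.63% of the other nuclei.

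The label was checked against 29 ependymal markers outside the axoneme lists. Some of them, such as Ccdc153 and Sntn, are themselves genes of the cilium, so the check is not independent of a rule on cilium genes. Of these, 28 were at least 4-fold higher in CPM in the members than in all other nuclei together. Over all genes with a count in the members and at least 10 counts in the others, 22.8% were 4-fold higher (3989 of 17466), and over genes with a count in at least 20% of members 38.2% were (523 of 1369). The cells chosen by cilium genes define these ratios, so they are given as a description with no test. Tmem212, a membrane protein gene used as an ependymal marker, was at 1770 ± 289 CPM (SD over 24 wells) in the members and at 2.31 in the other nuclei. Ccdc153, a classic ependymal marker, was at 301 ± 119 CPM against 0.419. Wdr49 was at 1844 ± 381 CPM against 3.74, and the adenylate kinases Ak7 and Ak9, which buffer nucleotides in motile cilia, were at 1500 ± 314 against 4.64 and at 1431 ± 270 against 6.99. Nnat was at 550 ± 228 CPM against 23.1, and Pltp, the phospholipid transfer protein, at 421 ± 137 against 13.6.

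**Figure D1:**
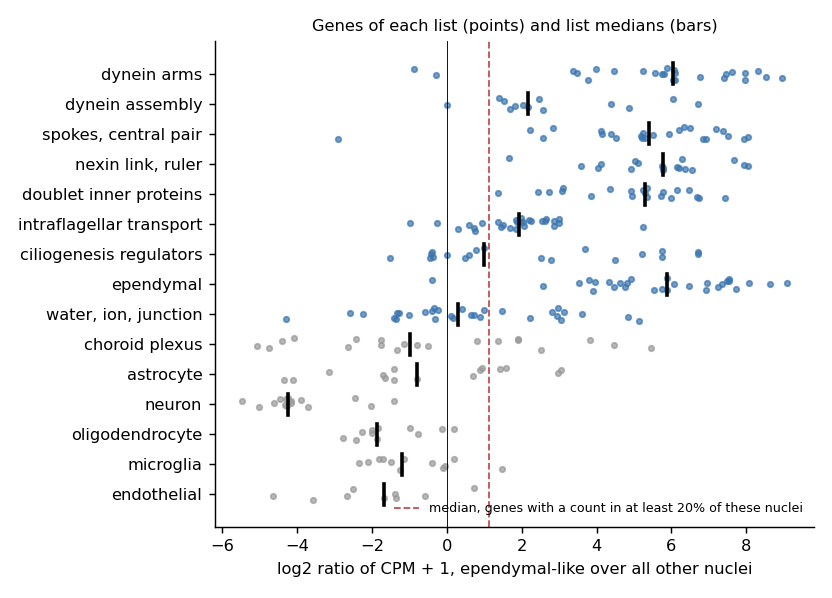
Each point is 1 gene and its x value is the log2 ratio of CPM + 1 in ependymal-like nuclei to that in all other nuclei, by gene list, with black bars at the list medians. The dashed line is the median of genes with a count in at least 20% of these nuclei, 1.13. Blue lists (motile cilium and ventricle lining) are drawn with the rule genes included and run from a median of 6.04 for dynein arms to 0.29 for water channels, ion pumps and junctions, and the grey lists of choroid plexus, astrocyte, neuron, oligodendrocyte, microglia and endothelial markers have medians below 0.

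Across 5 lists of axoneme parts, 86 of the 95 genes that the rule did not use were at least 4-fold higher in the members and 93 had a count. The counts of these lists at least 4-fold higher and their median log2 ratios in the next paragraphs leave out the rule genes. The promoter counts and group comparisons further below include them. The 95 genes were also summed per nucleus. They made up a median of 4.89% of a member's transcripts (5th to 95th percentile 3.50 to 6.49%). The same sum was 1.05% in choroid plexus-like, 0.167% in astrocyte-like and 0.115% in neuron-like nuclei. The well medians of the members lay between 4.12 and 5.59%, and the 4 groups overlapped, at 4.14 to 5.32% in WT-veh, 4.12 to 5.59% in WT-PMX, 4.51 to 5.04% in Arc-veh and 4.59 to 5.50% in Arc-PMX.

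Dynein arm genes had a median log2 ratio to the other nuclei of 5.88, with 21 of 23 genes at least 4-fold higher. The exceptions, Dnah8 and Dnah17, had 1 count each. Dnah12, an inner arm heavy chain, was at 3322 ± 463 CPM and had a count in 96.3% of the members, against 5.89 CPM in the other nuclei. In single wells Dnah12 ran from 1895 to 3712 CPM in WT-veh (median 3254), from 3275 to 4150 in WT-PMX (median 3613), from 2968 to 3706 in Arc-veh (median 3197) and from 2694 to 4120 in Arc-PMX (median 3297). The groups overlapped, and the lowest well was WT-veh F3 with its 7 nuclei. Dnah10, another inner arm heavy chain, was at 1380 ± 338 CPM against 3.32, and Dnah5, an outer arm heavy chain, at 1100 ± 281 against 19.2. Dnah9, a second outer arm chain, was at 2166 ± 374 CPM but only 11.2-fold above the others, whose level was 202 CPM. Armc4, an outer arm docking factor, was 218-fold higher and Wdr63, an inner arm intermediate chain, 339-fold higher.

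Factors that assemble dynein arms in the cytoplasm had a lower list median than the arms. Of 13 such genes 9 were at least 4-fold higher, with a median log2 ratio of 2.17. Dnaaf3 was at 192 ± 95.1 CPM, 220-fold above the others, Dnaaf1 was 166-fold higher and Lrrc6 31.0-fold higher at 462 ± 205 CPM. Pih1d3 was at 0 in the members.

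Radial spoke and central pair genes were at least 4-fold higher in 22 of 23 cases, with a median log2 ratio of 5.29. Hydin, a central pair gene whose mutation causes hydrocephalus in mice, was at 2088 ± 391 CPM, 302-fold above the other nuclei. By well it ran from 1509 to 2278 CPM in WT-veh (median 1708), from 1644 to 2755 in WT-PMX (median 2107), from 1482 to 2659 in Arc-veh (median 2137) and from 1738 to 2721 in Arc-PMX (median 2318). The groups again overlapped. Cfap54 and Cfap46, projections of the central pair, were at 2437 ± 448 and 2216 ± 411 CPM, and Spef2 and Spag17 at 1845 ± 339 and 1538 ± 247 CPM. The exception was Spag6, at 0.

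For the nexin-dynein regulatory complex and the axonemal ruler, 15 of 16 genes were at least 4-fold higher (median log2 ratio 5.96). Iqca, a subunit of the regulatory complex, was at 529 ± 137 CPM against 1.10, and Ccdc39, part of the ruler that sets the axonemal repeat, at 535 ± 179 against 45.3. Proteins inside the doublet microtubules had 19 of 20 genes at least 4-fold higher (median 5.27), among them Efhb at 502 ± 128 CPM against 4.66.

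Intraflagellar transport, which carries parts along primary and motile cilia alike, was higher to a smaller degree. Of 28 genes 14 were at least 4-fold higher, beside 22.8% of all genes and 38.2% of those with a count in at least 20% of members. The median log2 ratio was 1.92, against 1.13 for all genes with a count in at least 20% of members. Kif9, a kinesin of motile cilia, was at 629 ± 158 CPM and 40.1-fold higher. Ift88 and Ift81, subunits of the transport train, were 7.31-fold and 8.13-fold higher, and Dync2h1, the retrograde motor, 3.64-fold.

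Of 19 regulators of multiciliated fate, 9 were at least 4-fold higher and 3 had no count (Mcidas, Ccno and Foxn4). The shares were 22.8% over all genes and 38.2% over those with a count in at least 20% of members. The list median was a log2 ratio of 0.99, beside 0.35 over all genes with a count and 1.13 for the latter genes. Only 6 of the 19 had a count in at least 20% of members, and 13 of the 19 were above the other nuclei at all. Most of those given with a level here are among the higher members. Foxj1, the forkhead factor of motile ciliogenesis, had 111 counts in 14.5% of members, 94.6 ± 64.0 CPM against 0.868. In single wells it ran from 80.8 to 216 CPM in WT-veh (median 115) and from 0 to 159 in WT-PMX (median 48.4). The wells ran from 41.3 to 199 CPM in Arc-veh (median 122) and from 0 to 134 in Arc-PMX (median 51.4). The groups overlapped and rested on 31, 31, 29 and 20 counts in this order. Myb was at 135 ± 75.3 CPM, 324-fold above the others and at 0 in choroid plexus-like nuclei, and Trp73, which acts above Foxj1, at 328 ± 110 CPM and 64.0-fold. Among the RFX factors, which bind ciliary gene promoters, Rfx2 was 39.8-fold higher at 513 ± 171 CPM and Rfx3 1.72-fold higher at 1096 ± 247 CPM, being also at 674 CPM in the other nuclei. Rfx4 was 13.4-fold higher.

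Genes of water channels, ion pumps, junctions and planar polarity were at least 4-fold higher in 9 of 30 cases, beside 22.8% of all genes and 38.2% of those with a count in at least 20% of members. The list median was a log2 ratio of 0.29, beside 0.35 over all genes with a count, and most genes named here are among its higher members. Celsr1 and Vangl1, which align ependymal cilia within the plane of the wall, were at 211 ± 90.0 and 190 ± 96.7 CPM and 41.6-fold and 34.1-fold higher, and their partner Fzd3 was 7.22-fold higher. Aqp4, the astrocytic and ependymal water channel, was at 162 ± 82.2 CPM with a count in 22.5% of members, 8.67-fold above the others but below the 348 CPM of astrocyte-like nuclei. The gap junction gene Gja1 was 8.33-fold higher and the inward rectifier Kcnj10 9.53-fold. Cdh1 and Gjb6 were at 0.

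The promoters of members of the axoneme lists were read for the motif that RFX factors recognise, since Rfx2, Rfx3 and Rfx4 were all present. The letters GTTGCC, on either strand, stood in the 300 bases around the start site (250 before and 50 after) of 37 of the 82 axoneme genes with an entry (45.1%). The 82 include the rule genes on these lists, and 4 of the 7 rule genes held the letters. Of all 27025 genes with an entry in the RefSeq promoter table (build GRCm38.p6), 3821 held them (14.1%). The shares were 47.8% of 23 intraflagellar transport genes, 33.3% of 24 ependymal markers, 30.0% of 10 neuron markers and 15.4% of 13 astrocyte markers. A full X-box, GTTNCC followed after 0 to 3 bases by GGNAAC, stood in 3 of the 82 axoneme promoters (3.66%) and in 0.936% of all genes, and one whose N is G also counts as GTTGCC. The forkhead letters TGTTTAC stood in 3 of the 82 (3.66%) and in 4.05% of all genes. These are matches of letters, not binding sites.

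The 5 promoters below show where the motif lay, those of Spag16, Cfap44 and Enkur, 3 of the 4 rule genes that held GTTGCC, and those of Iqca and Ccdc180, the 2 genes among the 30 leading genes described below that held a full X-box. The sequences are from RefSeq, 5′ to 3′ on the strand of the gene, with GTTGCC or its reverse complement GGCAAC in capitals. Spag16 is at chr1:69826720-69827019 (+), Cfap44 at chr16:44394549-44394848 (+), Enkur at chr2:21205316-21205615 (-), Iqca at chr1:90153387-90153686 (-) and Ccdc180 at chr4:45890053-45890352 (+). In Spag16 the motif occurs on both strands, 8 bases apart from start to start, and in Iqca and Ccdc180 the X-box begins 100 bases before the start site and at position 1, the first of the 50 bases after it.
Spag16: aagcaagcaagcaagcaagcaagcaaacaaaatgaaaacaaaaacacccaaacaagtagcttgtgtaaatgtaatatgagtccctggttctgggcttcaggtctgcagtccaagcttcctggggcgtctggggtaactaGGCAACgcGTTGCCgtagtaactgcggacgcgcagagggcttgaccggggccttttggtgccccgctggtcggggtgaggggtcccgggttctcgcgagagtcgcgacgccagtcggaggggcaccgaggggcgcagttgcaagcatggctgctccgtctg
Cfap44: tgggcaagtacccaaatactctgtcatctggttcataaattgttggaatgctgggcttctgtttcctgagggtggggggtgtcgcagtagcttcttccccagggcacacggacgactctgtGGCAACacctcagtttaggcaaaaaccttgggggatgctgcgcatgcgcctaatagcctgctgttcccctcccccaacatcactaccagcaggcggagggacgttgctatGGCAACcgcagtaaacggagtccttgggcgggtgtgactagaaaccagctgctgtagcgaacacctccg
Enkur: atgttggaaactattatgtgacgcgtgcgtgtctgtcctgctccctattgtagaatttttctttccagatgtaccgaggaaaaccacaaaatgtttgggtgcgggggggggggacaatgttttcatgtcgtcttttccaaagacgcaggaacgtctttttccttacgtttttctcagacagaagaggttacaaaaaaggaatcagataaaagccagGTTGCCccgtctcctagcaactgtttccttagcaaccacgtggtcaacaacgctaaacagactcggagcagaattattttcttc
Iqca: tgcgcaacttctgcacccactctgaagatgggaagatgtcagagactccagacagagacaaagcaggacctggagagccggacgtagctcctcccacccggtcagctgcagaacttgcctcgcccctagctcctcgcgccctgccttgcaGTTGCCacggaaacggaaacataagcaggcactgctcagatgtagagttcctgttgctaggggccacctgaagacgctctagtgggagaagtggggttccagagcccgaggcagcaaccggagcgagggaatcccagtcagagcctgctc
Ccdc180: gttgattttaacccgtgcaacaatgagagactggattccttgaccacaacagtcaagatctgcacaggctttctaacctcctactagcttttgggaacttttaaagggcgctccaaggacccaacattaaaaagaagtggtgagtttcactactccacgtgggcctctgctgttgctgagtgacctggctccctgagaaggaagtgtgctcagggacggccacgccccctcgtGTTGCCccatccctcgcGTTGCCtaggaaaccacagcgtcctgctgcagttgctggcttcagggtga

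A set of 30 leading genes was named by the fold over all other nuclei among genes outside the rule with a count in at least 20% of members. Their folds ran from 415 to 784, they lay on 15 chromosomes, 24 were protein coding, and each had a count in at least 22 of the 24 wells. Only 10 of them were on a cilium or ependymal list, and 20 were on no list. Tmem212 (chr3:27866066-27896368, minus strand, GENCODE vM21 on GRCm38) led with 784-fold, followed by Unc5cl (chr17:48454901-48539714, plus strand) at 784-fold and Ccdc180 (chr4:45890303-45950774, plus strand) at 781-fold. Crocc2, a relative of the rootlet gene Crocc (chr1:93168725-93231072, plus strand), was 712-fold higher, and Sntn, which encodes sentan of the ciliary tip, 657-fold. Unc5cl was at 1368 ± 388 CPM and had a count in 71.8% of members. The genes Gm10714, 3300002A11Rik and Gm47888 among them are antisense transcripts, and Vmn2r30 and Gm45783 overlap on the same strand, so their reads may belong to the partner. The median gene length was 54.7 kb, against 126 kb for the 1368 genes with a count in at least 20% of members.

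Markers of other cell types were mostly low. Of 15 neuron markers none was 4-fold higher and the median log2 ratio was -4.26. The pan-neuronal splicing factor Rbfox3 was at 32.7 ± 44.0 CPM against 906 in the other nuclei, and Gad2 was at 0. Kcnip4, a potassium channel partner, was the exception by level, with 1830 ± 501 CPM and a count in 78.8% of members, against 7431 in the other nuclei, 908 in choroid plexus-like and 636 in astrocyte-like nuclei. Neuron markers summed to 1928 to 4632 CPM over the 24 wells, and the 4 groups overlapped. Of 15 astrocyte markers 2 were at least 4-fold higher, Aqp4 and Gja1, while the glutamate transporters Slc1a2 and Slc1a3 were at 240 ± 126 and 474 ± 249 CPM, against 10709 and 3922 in astrocyte-like nuclei. The astrocyte markers summed to 1569 to 3013 CPM over the wells, again with overlapping groups. Of 12 microglia markers 9 had a count and none was 4-fold higher (median log2 ratio -1.21), and of 9 fibroblast markers 6 had a count and none was 4-fold higher (median -0.16), with Trem2, C1qb, C1qc, Dcn and Col3a1 at 0, as was Cldn5 of endothelium. Tanycytes, relatives of ependymal cells, had 7 of 8 markers with a count and 2 at least 4-fold higher (median 0.12), a share near the 22.8% of all genes. These were Scn7a, at 17.4-fold with a count in 8.83% of members, and Adm, with 1 count, while the defining marker Rax was at 0.

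Choroid plexus markers were split. Of 20 such genes, 8 were at least 4-fold higher in the members, beside 22.8% of all genes, and the median log2 ratio was -0.97. Ttr, the thyroid hormone carrier made in bulk by the choroid plexus, had 3 counts in all members, 2.70 CPM against 2286 in choroid plexus-like nuclei, and Kl, Kcne2 and Otx2os1 were at 0, the last by the rule. The folate receptor gene Folr1 was at 79.4 ± 90.7 CPM, Calml4 at 91.6 ± 84.5 and the homeobox gene Otx2 at 62.8 ± 67.5. The choroid plexus markers summed to 2410 CPM in the members of WT-veh M1, against 211 to 866 in those of the remaining wells. For Calml4 the pooled level was 85.4 CPM in the members and 82.5 in choroid plexus-like nuclei. The share of choroid plexus-like nuclei varied between wells from 0 to 5.84%, and its part in these values was not tested.

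Differences in depth were set aside by thinning each nucleus to 1000 transcripts, which kept 494 of the members, 662 choroid plexus-like and 4332 astrocyte-like nuclei and a draw of 5000 from the remaining nuclei. Of those 41013 remaining nuclei, 6593 held under 1000 transcripts and could not be drawn. Dnah12 then had a count in 96.2% of members and 0.302% of choroid plexus-like nuclei, Dnah10 in 67.0% and 0.151%, and Tmem212 in 78.5% and 0.151%. In choroid plexus-like nuclei both dynein genes lay far below the median of their list. Over the dynein arm list, rule genes included, the median was 46.6% of members and 9.97% of choroid plexus-like nuclei. For radial spoke and central pair genes it was 40.2 and 6.80%. Spag16 and Dnah6, which the rule used, had a count in 94.3 and 92.1% of members and in 80.5 and 53.0% of choroid plexus-like nuclei. In the other direction, Htr2c, which the rule limits, had a count in 0.810% and 99.4%, Ttr in 0.202% and 82.9%, and Trpm3 in 16.0% and 100%. Sox6, a transcription factor on the oligodendrocyte precursor list, had a count in 74.3% of members, 67.6% of astrocyte-like nuclei, 9.82% of choroid plexus-like nuclei and 7.42% of the remaining nuclei. Slc1a2 was seen in 18.8% of members and 99.7% of astrocyte-like nuclei. The values without thinning were 27.2% and 99.7%.

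**Figure D2:**
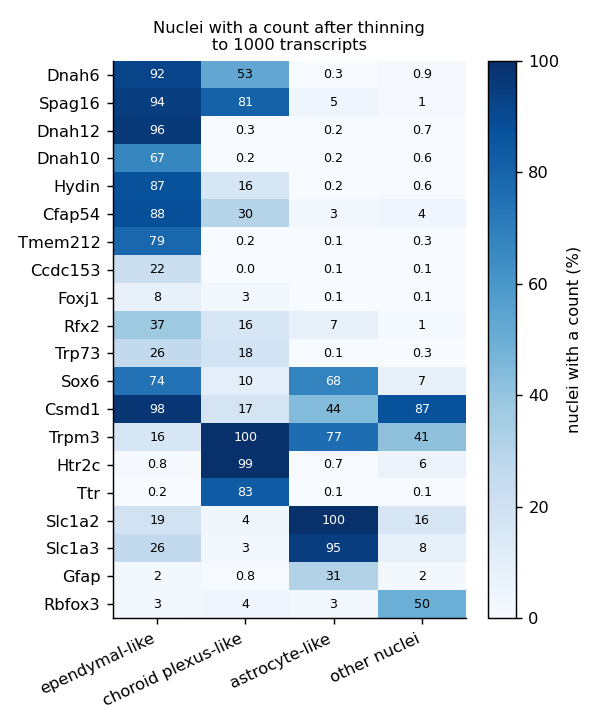
The heat map gives the percent of nuclei with at least 1 count of each gene (rows) in 4 classes of nuclei (columns), each nucleus thinned to 1000 transcripts. Dnah12, Dnah10 and Tmem212 are at 67.0 to 96.2% in ependymal-like nuclei and at most 0.302% in choroid plexus-like nuclei, while the rule gene Spag16 is high in both. The genes shown were picked, and the median of the whole dynein arm list in choroid plexus-like nuclei is 9.97%.

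The members held more mitochondrial transcripts than other nuclei. Their median was 1.36% of transcripts (quartiles 0.630 and 2.71%), against 0.0231% in all other nuclei, 0.0249% in choroid plexus-like and 0.0749% in astrocyte-like nuclei. Other nuclei within the members' quartiles of depth, 1009 to 2126 transcripts, had a median of 0.0781% (n = 7844). The median of the members was above that of the other nuclei in each of the 24 wells, between 0.499 and 4.70% against 0.00530 to 0.137%. Of the mitochondrial transcripts in members, 97.5% were the ribosomal RNAs mt-Rnr1 and mt-Rnr2, and in other nuclei 97.0% were. The study's filter keeps nuclei with under 1% mitochondrial transcripts, which leaves 262 of the 657 members (39.9%) but 95.6% of the other nuclei. Members under 1% and those at or above it had similar medians of transcripts (1458.5 and 1422), of rule gene share (1.29 and 1.30%) and of the other axoneme genes (4.74 and 4.97%). By group the well medians of the mitochondrial share were 0.499 to 2.04% in WT-veh, 0.717 to 3.17% in WT-PMX, 0.522 to 2.55% in Arc-veh and 0.950 to 4.70% in Arc-PMX.

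**Figure D3:**
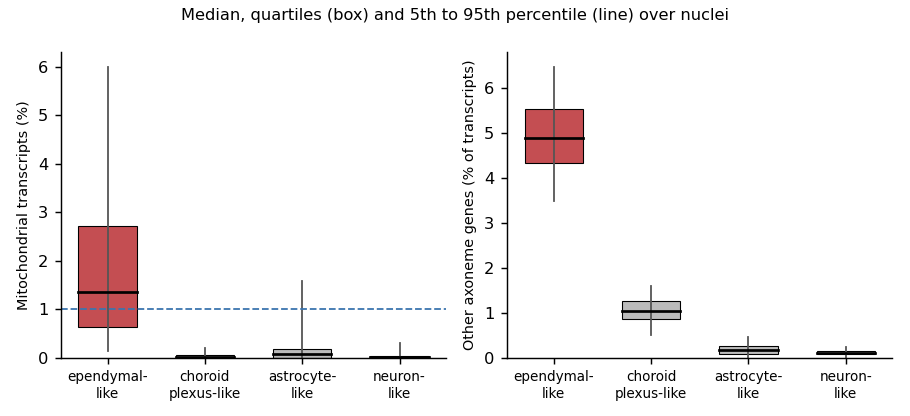
Left, mitochondrial transcripts and right, transcripts of the 95 axoneme genes outside the rule, both as percent of a nucleus's transcripts, in 4 classes of nuclei. Lines are medians, boxes quartiles and whiskers the 5th to 95th percentile over nuclei, and the dashed line is the study's filter of 1%. The medians of ependymal-like nuclei are 1.36% and 4.89%.

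The comparison of groups first asked whether the share of nuclei that are ependymal-like differed with genotype or treatment. No difference passed the test. The share was 1.94, 1.99, 0.511, 1.44, 2.20 and 0.495% in the WT-veh wells F1 to M3, with a mean of 1.43 ± 0.758% (SD, n = 6), and 197 of 12582 nuclei. It ran from 0.758 to 1.89% in WT-PMX (median 1.34%, mean 1.33 ± 0.391%). The share was 1.10, 1.25, 1.37, 1.15, 0.494 and 1.31% in the Arc-veh wells F1 to M3 (mean 1.11 ± 0.318%). In Arc-PMX it ran from 0.930 to 2.18% (median 1.57%, mean 1.55 ± 0.432%). All 4 groups overlapped, and WT-veh had both the highest and nearly the lowest wells.

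Arc-veh minus WT-veh was -0.316 percentage points (two-sided exact permutation test of 6 against 6 wells, p = 0.318, Benjamini-Hochberg adjusted over 6 comparisons 0.821). Without WT-veh F3 and WT-veh M3, a choice made after their 7 nuclei each had been seen, the difference was -0.778 points (exact permutation p = 0.00952, adjusted 0.0571) and the remaining 4 WT-veh wells, at 1.44% and above, lay over all 6 Arc-veh wells. Those 2 wells also had the highest shares of neuron-like nuclei, 79.6 and 75.2%, against 52.2 to 74.0% in the other wells. Among nuclei that were not neuron-like, their shares of ependymal-like nuclei were 2.51 and 2.00%, still below the 3.89 to 6.11% of the other 4 WT-veh wells. Arc-PMX minus Arc-veh was 0.443 points (exact permutation p = 0.0714, adjusted 0.429), WT-PMX minus WT-veh was -0.0988 points (exact permutation p = 0.766, adjusted 0.847), and these comparisons share control wells. Among nuclei under 1% mitochondrial transcripts Arc-PMX minus Arc-veh turned to -0.148 points (exact permutation p = 0.344). Over 12 against 12 wells, Arc minus WT was -0.0452 points (permutation p = 0.822), PMX205 minus water 0.172 points (permutation p = 0.411) and female minus male 0.0384 points (permutation p = 0.847), with adjusted values of 0.821 to 0.847. With neuron-like nuclei left out of the denominator, Arc-veh minus WT-veh was -1.74 points (exact permutation p = 0.0671, adjusted 0.184), Arc-PMX minus Arc-veh 1.31 points (exact permutation p = 0.0476, adjusted 0.184) and Arc minus WT -0.911 points (permutation p = 0.0921, adjusted 0.184), so none passed the adjusted test there either. A share is relative to the other nuclei of the well, so fewer ependymal-like nuclei and more of the others cannot be told apart.

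**Figure D4:**
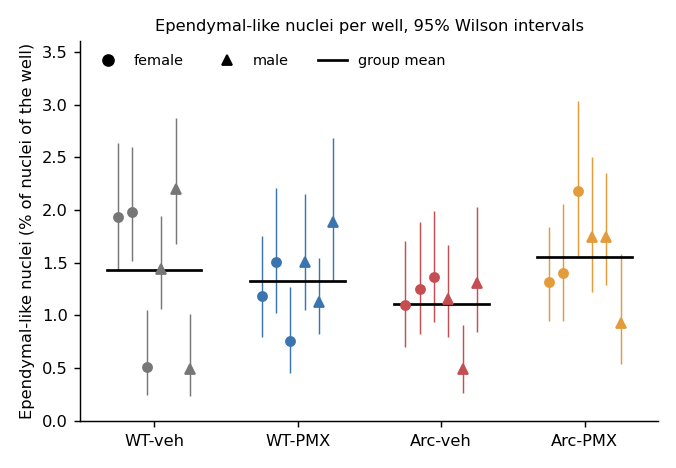
Ependymal-like nuclei as percent of the nuclei of each well (y axis, from 0), by group, circles for females and triangles for males, with 95% Wilson intervals and bars at the group means. The means of 1.43, 1.33, 1.11 and 1.55% lie within the spread of wells, and WT-veh F3 and WT-veh M3 sit near 0.5%.

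Expression within the members was then compared over the counts summed per well, for 967 genes in 24 wells. One gene was called in Arc-veh against WT-veh and the same gene in Arc-PMX against Arc-veh, which is 0.103% of the genes tested in each case, by edgeR's quasi-likelihood test at a Benjamini-Hochberg adjusted p under 0.05. No gene was called in WT-PMX against WT-veh, Arc against WT, PMX205 against water or the interaction of drug and genotype (edgeR, 0%), with 38, 44, 41 and 27 genes at an unadjusted p under 0.05, where DESeq2 also called none. DESeq2 called none in the first 2 comparisons either, where 44 and 36 genes had an unadjusted p under 0.05 by edgeR. Females against males gave Xist alone (0.103%), at a log2 change of 5.31 (SE 0.39, edgeR's adjusted p = 1.2e-13). The Y-linked genes were too low to be among the 967 genes. Without a filter on low counts edgeR also called Uty (log2 change -4.68, SE 0.55), Eif2s3y, Kdm5d and Ddx3y, all lower in females.

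The called gene was AY036118, a transcript linked to ribosomal RNA. It was at 458, 553, 632, 430, 877 and 216 CPM in the WT-veh wells F1 to M3 and at 432, 804, 5874, 16788, 496 and 598 CPM in the Arc-veh wells F1 to M3. Arc-veh F3 and Arc-veh M1 were above every other well and the other 4 Arc-veh wells overlapped with WT-veh. It was at 328 to 1118 CPM in WT-PMX (median 490) and at 312 to 824 in Arc-PMX (median 505). The log2 change was 2.86 for Arc-veh minus WT-veh (SE 0.58, edgeR's adjusted p = 0.0127) and -2.91 for Arc-PMX minus Arc-veh (SE 0.55, edgeR's adjusted p = 0.00396), and both rest on the same Arc-veh wells. Without Arc-veh F3 and Arc-veh M1 the log2 changes were 0.09 and -0.19, and edgeR called no gene in either comparison. In the nuclei of the same wells that were not ependymal-like, AY036118 was at 3866 CPM in Arc-veh F3 and 12111 in Arc-veh M1, against 152 to 974 in the remaining 22 wells. So the same 2 wells stood apart in all nuclei, and the difference was not particular to the ependymal-like ones.

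**Figure D5:**
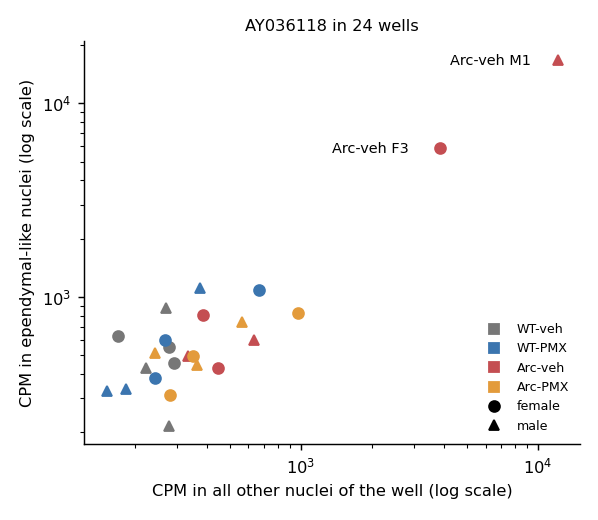
AY036118 in ependymal-like nuclei (y axis) against all other nuclei of the same well (x axis), both in CPM on log axes, with 1 point per well, colours for groups and circles and triangles for females and males. Arc-veh F3 and Arc-veh M1 lie apart on both axes, and the remaining 22 wells are at 974 CPM or below on the x axis.

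Axoneme genes did not pass the test in any comparison. Of the 55 that were tested, 22 had a positive log2 change in Arc-veh minus WT-veh (median -0.06, range -0.48 to 0.41), beside 512 of all 967 genes (median 0.02). In Arc-PMX minus Arc-veh 42 of the 55 were positive (median 0.08, range -0.41 to 0.56), beside 507 of 967 (median 0.01). Both comparisons use the same Arc-veh wells. In WT-PMX minus WT-veh 36 of the 55 were positive (median 0.06), beside 549 of 967 (median 0.03). PMX205 minus water had 43 of the 55 positive (median 0.09), beside 523 of 967 (median 0.02). The 55 include the rule genes on these lists, whose levels helped to choose the members. Of the 7 rule genes, 2 were positive in Arc-veh minus WT-veh and all 7 in Arc-PMX minus Arc-veh. For Dnah12 the log2 change was 0.03 (SE 0.15) for Arc-veh minus WT-veh and 0.05 (SE 0.15) for Arc-PMX minus Arc-veh. Tmem212 had changes of 0.12 (SE 0.16) and -0.09 (SE 0.15). Spag16 had changes of 0.06 (SE 0.16) and 0.04 (SE 0.15), but it is a rule gene, so these values test nothing. The 95% interval of a gene spanned a median of 1.47-fold either way in Arc-veh minus WT-veh and 1.30-fold over both treatments, and since a call also needs a small adjusted p, changes larger than these could go uncalled at this depth.

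The genes nearest to the threshold were named by rank of p. Cdk8, a kinase of the transcriptional mediator complex, had a log2 change of -1.37 in Arc minus WT (SE 0.33, edgeR's adjusted p = 0.150). It ran from 189 to 1534 CPM in WT-veh, from 164 to 3513 in WT-PMX, from 246 to 536 in Arc-veh and from 305 to 887 in Arc-PMX. The wide range was in the WT groups, whose highest well was WT-PMX M2, and the low wells of all groups overlapped. In the other nuclei WT-PMX M2 was also the highest well for Cdk8, at 973 CPM against 224 to 720 in the remaining wells. Without WT-PMX M2 the log2 change was -0.82 (edgeR's adjusted p = 0.561). Ccdc153 was at 0.68 in PMX205 minus water (SE 0.19, edgeR's adjusted p = 0.859), with medians of 228 CPM in WT-veh, 367 in WT-PMX, 218 in Arc-veh and 310 in Arc-PMX. Its PMX205 and water wells overlapped. In WT-PMX minus WT-veh, Nek10, a kinase of ciliated cells, was at 0.66 (SE 0.22) and Jazf1 at 0.88 (SE 0.31), both with an adjusted p near 1 by edgeR.

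Complement and plaque response genes were looked at because the drug blocks a complement receptor. The receptor genes C5ar1 and C5ar2 were at 0 in the members. C3, the central complement protein, had 83 counts in 7.91% of members, 74.6 CPM pooled against 11.5 in astrocyte-like and 0.334 in choroid plexus-like nuclei. In WT-veh 2 of 6 wells had a C3 count, at 28.6 and 34.4 CPM, and in WT-PMX all 6 did, at 27.2 to 169 CPM (median 77.2). In Arc-veh 5 of 6 wells had one, at up to 111 CPM (median 32.8), and in Arc-PMX all 6, at 22.3 to 227 CPM (median 58.3). The PMX205 wells were higher by median in both genotypes but overlapped with the water wells. C3 was too low to be among the 967 genes. Without a filter on low counts its log2 change was 1.79 for PMX205 minus water (SE 0.42, edgeR's unadjusted p = 2.5e-05, adjusted over 17931 genes 0.0893), which is not called. Of its 83 counts, 26 came from Arc-PMX F1 and 20 from WT-PMX M2, where 1 nucleus held 9. The 12 microglia markers summed to 113 and 135 CPM in those 2 wells, to 1345 in WT-PMX F3 and to 0 to 216 in the remaining wells, and their part in C3 was not tested. In the other nuclei of the same wells C3 was at 0 to 0.484 CPM in WT and at 0.682 to 10.2 CPM in Arc.

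Of the 33 genes on the complement and plaque response list, 7 were at least 4-fold higher in the members than in the other nuclei, a share near the 22.8% of all genes, and the list median was a log2 ratio of 0.36 beside 0.35 over all genes with a count. They were C3, Cd55, which dissociates complement convertases, at 103 ± 54.5 CPM against 3.99, the filament gene Vim, S100a6, Ifit3 with 3 counts, and the lipid and protein carriers Clu and Apoe at 240 ± 101 and 185 ± 90.9 CPM. Csmd1, a complement inhibitor best known from neurons, had a count in 98.8% of members and was at 5030 ± 810 CPM, against 708 in choroid plexus-like and 1055 in astrocyte-like nuclei and 5762 in all other nuclei. By group the wells of Csmd1 ran from 4632 to 7359 CPM in WT-veh, from 3775 to 6277 in WT-PMX, from 4437 to 6402 in Arc-veh and from 4217 to 5088 in Arc-PMX, all overlapping.

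Gfap, C4b and Serpina3n, which rise in astrocytes around plaques, had few counts. Gfap, the astrocytic intermediate filament, had 37 counts in the members, 33.2 CPM pooled against 755 in astrocyte-like nuclei, and 6 and 9 counts in the water and PMX205 groups of WT and 10 and 12 in those of Arc. In the same order C4b had 3, 13, 17 and 15 counts and Serpina3n 1, 1, 0 and 2, too few to compare. App and its processing genes had a median log2 ratio of -0.39, and 2 of 17 were at least 4-fold higher, beside 22.8% of all genes. These were Bace2, a secretase that cleaves within the amyloid peptide, at 223 ± 91.3 CPM against 6.42, and the endocytic receptor Lrp2 at 115 ± 76.0 against 4.81. App itself was at 221 ± 122 CPM against 622 in the other nuclei. In single wells Bace2 ran from 192 to 433 CPM in WT-veh, from 54.3 to 246 in WT-PMX, from 146 to 266 in Arc-veh and from 95.1 to 275 in Arc-PMX, with overlapping groups.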

How the data were processed

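Nuclei of 24 hippocampal wells were profiled with the Parse Split-seq kit. The authors deposited raw transcript counts per barcode and gene, made with split-pipe of Parse and mouse build mm10 (the labels also name bcl2fastq), unnormalized and with all 1516119 barcodes kept. Groups came from the authors' sample sheet, joined to each barcode by its well of the initial barcoding round. The study reports that 1 WT sample was left out as Arctic by expression but names no well, so all were kept.

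The members and gene lists were chosen with earlier results of these data known. Nuclei were filtered by transcripts and genes as in the study, but not by its limit of 1% mitochondrial transcripts, which was tried as an alternative, and doublets were scored by Scrublet in scanpy 1.11.5 (expected rate 0.06) without removal. Counts were summed per well over the 7 sublibraries. CPM are counts per 1e6 transcripts of the class, folds between classes are plain ratios of pooled CPM for genes with at least 10 counts in the other nuclei, and log2 ratios and list medians are of CPM + 1. Sums of wells with at least 5 members were tested by edgeR 4.0.16 (R 4.3.3; TMM, filterByExpr, glmQLFTest, 4 groups in one fit with sex as covariate, Benjamini-Hochberg), and shares by exact permutation (924 regroupings of 6 against 6 wells) or 100000 permutations (12 against 12). The study's Wilcoxon test over cells was not repeated, since cells of a well are not replicates. Named genes were the most abundant list members and all called, the 30 leading genes by fold, the called genes or else the 5 smallest p per comparison, the sex-linked genes and App, and Foxj1, Gfap, C4b, Serpina3n, Apoe, Aqp4 and Ttr. Cd55, Bace2, Lrp2, C3 and Csmd1 belong to the lists. The test was tried on simulated counts. Gene coordinates are from GENCODE vM21, which held 55450 of 55536 gene identifiers, and promoters from RefSeq. The alternatives were DESeq2 1.42.0, other filters, rules, denominators and fits, and each well or sublibrary left out. Some genes that these rules name are not reported here.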

Additional observations from a re-analysis of the deposited data

Results flagged for a closer look

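In 28 groups of 6 wells, 5 wells stood apart from the rest of their group by Dixon's criterion. AY036118, Cdk8 and Ccdc153 were measures picked from the comparisons of these same data, and C3 had few counts. The usual rate of about 1 in 20 groups is therefore no yardstick for these flags. The share of ependymal-like nuclei in Arc-veh M2 was 0.494%, below the other Arc-veh wells. AY036118 was at 16790 CPM in Arc-veh M1. Ccdc153 was at 433 CPM in WT-veh M3, from 2 counts, and at 512 CPM in Arc-PMX F2. C3 was at 227 CPM in Arc-PMX F1, from 26 counts.

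AY036118 was also compared between cell classes. It was picked because edgeR called it in Arc-veh minus WT-veh of these same wells, while Arc minus WT was not called in the members. The log2 difference Arc minus WT over all wells was 0.75 in ependymal-like and 1.17 in astrocyte-like nuclei on the log2(CPM + 10) scale, a difference of -0.42 (permutation test over 12 against 12 wells, p = 0.0389). The 2 wells that stand apart in this transcript take part in both values.

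Outside the single-nucleus wells, 6 of 3891 cells in the CD11b-selected wells met the rule's criteria on transcripts of its genes (0.154%, 95% Wilson interval 0.0707 to 0.336%). These cells had to hold more than 300 genes, not more than 400. A floor of 3 cells would be 0.0771%, a share that lies within the interval.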

How the results depend on the processing

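Leaving out single wells, or sublibraries, moved no share past the test at an adjusted p under 0.05. Without 1 well each, the difference in share ran from -0.503 to -0.162 points for Arc-veh minus WT-veh, 0.318 to 0.568 for Arc-PMX minus Arc-veh, -0.285 to 0.0555 for WT-PMX minus WT-veh, -0.126 to 0.0311 for Arc minus WT, 0.102 to 0.257 for PMX205 minus water and -0.0382 to 0.117 for female minus male. With nuclei under 1% mitochondrial transcripts only, Arc-PMX minus Arc-veh was -0.148, PMX205 minus water -0.195, Arc minus WT -0.279 (permutation p = 0.0861, adjusted 0.429), WT-PMX minus WT-veh -0.242 and female minus male 0.143. Without sublibrary 4, WT-PMX minus WT-veh was 0.0202, Arc minus WT 0.0219 and female minus male -0.0102, and without sublibrary 5 Arc minus WT was 0.0298. The cause was not tested.

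Counts of called genes without 1 well each ran from 0 to 1 for Arc-veh minus WT-veh (0 without WT-veh F2, WT-veh M1, Arc-veh F3 or Arc-veh M1), 0 to 1 for Arc-PMX minus Arc-veh (0 without Arc-veh F3 or Arc-veh M1) and 0 to 1 for Arc minus WT (Cdk8 without WT-veh M1, WT-PMX M1 or WT-PMX M3), and stayed at 0 for WT-PMX minus WT-veh, PMX205 minus water and the difference of PMX205 effects, and at 1 for sex. Arc-veh minus WT-veh gave 0 with at least 10 nuclei per well (which leaves out WT-veh F3 and WT-veh M3), 0 under 1% mitochondrial transcripts, 0 with only the groups compared, 0 without Arc-veh F3 and Arc-veh M1, and 0 by DESeq2. Arc-PMX minus Arc-veh gave 0 in the same cases except the limit of 10 nuclei, where it gave 1. Without a filter on low counts the 7 comparisons gave 1 for Arc-veh minus WT-veh, 2 for Arc-PMX minus Arc-veh (with mt-Rnr2), 1 for WT-PMX minus WT-veh (Lars2), 3 for Arc minus WT (Cdk8, Gm26561 and AY036118), 3 for PMX205 minus water (Lars2, mt-Rnr2 and AY036118), 1 for the difference of effects and 6 for sex (Xist, Cbwd1, Uty, Eif2s3y, Kdm5d and Ddx3y). AY036118 in PMX205 minus water was 0.037 on the log2 scale without Arc-veh F3 and Arc-veh M1.

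The numbers of the wells were not taken as pairs. Same-numbered wells of different groups correlated above 0.1 in only 3 of 36 pairs (median 0.0373). This cannot exclude a pairing, since sums per well were as low as 2643 counts and differently numbered wells were not compared. With the replicate number as a block, Arc-veh minus WT-veh gave 0 called genes and Arc-PMX minus Arc-veh still gave AY036118. For sex the block could not be fitted, since the numbers are nested in sex.

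Precision was limited by 7 to 52 members per well and a median of 1430 transcripts per nucleus, so genes such as Foxj1, C3 and Gfap rested on 111, 83 and 37 counts.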
